A study of Homo sapiens with 12 samples.

Results

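The interferon-stimulated genes described here are 52 of the 60668 genes in the count table, chosen by symbol: antiviral effectors, RNA sensors, STAT and IRF transcription factors, the ISG15 conjugation system and the immunoproteasome subunits. All 52 were found. RNA was sequenced from 12 libraries of established human cancer cell lines, with 3 biological replicates in each of 4 groups. PANC-1, a pancreatic adenocarcinoma line, carried either a short hairpin RNA (shRNA) against FOSL1 or a scrambled hairpin. H1299, labelled as lung adenocarcinoma, carried either an shRNA against HDAC2 or a scrambled hairpin. FOSL1 is a subunit of the AP-1 transcription factor and HDAC2 is a histone deacetylase. The study's methods describe lentiviral delivery and puromycin selection for the FOSL1 hairpin in both lines and do not state them for the HDAC2 and scrambled hairpins, and the labels name no interferon or other agent. The labels give 1 hairpin per target and do not say that the replicates were separate infections, so the p-values measure the spread between these libraries, which may be technical.

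Interferons are secreted proteins that bind receptors on the cell surface. The receptors activate JAK kinases, which phosphorylate STAT proteins such as STAT2, and these join IRF9 in a complex that recognises the interferon-stimulated response element (ISRE) in the promoters of target genes. The products block viral entry, degrade viral RNA, tag proteins with ISG15 or cut peptides for presentation to T cells, and many tumour cells express them at a low level without added interferon. RNA sensors such as RIG-I (gene DDX58) and MDA5 (gene IFIH1) lie upstream, where they lead to interferon production, and are themselves interferon-induced.

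The ISRE was searched as TTTCNNTTTC on both strands in windows from 250 bases before to 50 bases after each RefSeq transcription start (GRCh38.p14). Windows were at hand for 43 of the 52 members, in 57 windows. The following 30-base stretches are shown because they come from members that later moved in different directions. Each reads 5′ to 3′ on the gene's strand with whole ISRE matches in capitals.
IFIT1 (chr10:89392503-89392532, plus strand): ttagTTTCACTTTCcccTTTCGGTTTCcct
IFIT3 (chr10:89327831-89327860, plus strand): agccgttaggTTTCATTTTCctcctcccaa
IFITM3 (chr11:320885-320914, minus strand): agGAAAAGGAAActgttgaGAAACCGAAAc
PARP9 (chr3:122564322-122564351, minus strand): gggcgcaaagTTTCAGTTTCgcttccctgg
ISG15 (chr1:1013377-1013406, plus strand): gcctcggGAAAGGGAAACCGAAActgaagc
HERC5 (chr4:88456987-88457016, plus strand): attacagTTTCCTTTTCCTTTTCgattccg
ISG20 (chr15:88638937-88638966, plus strand): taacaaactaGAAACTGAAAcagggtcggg
IFI27 (chr14:94110624-94110653, plus strand): gcagTTTCGGTTTCctgGAAAATGAAAcct

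Of the member windows, 34 of 57 (59.6%) held an ISRE match, against 1255 of all 35116 RefSeq windows (3.57%). Counted by gene, 29 of 43 members (67.4%) had a match in any window, against 4.38% of 27305 genes. The stretch printed for PARP9 is also the match of DTX3L, which starts on the opposite strand. The gamma-activated site, TTCNNNGAA, was in 14 member windows (24.6%) against 7.66% of all windows, and the AP-1 motif TGANTCA was in 5 (8.77%) against 7.71%. Counted by gene, the gamma-activated site was in 27.9% of members against 9.38% of genes, and the AP-1 motif in 11.6% against 9.37%. Matches of different motifs overlapped 8 times in the member windows. The windows of IFI27 overlap each other, as do those of IFI44 and PLSCR1, so counts over windows hold some sites more than once. A match describes these letters and is not evidence of binding.

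**Figure D1:**
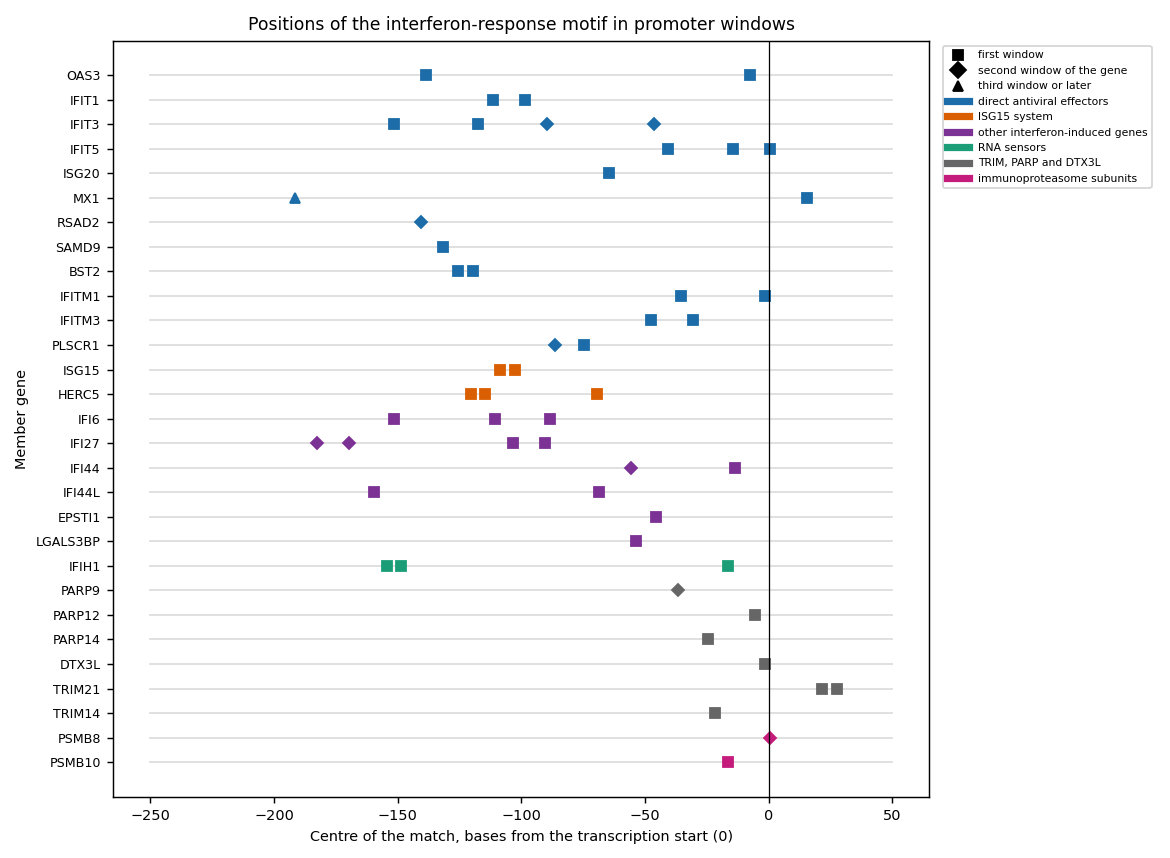
Positions of ISRE matches in the promoter windows of the 29 members that had one. The x axis gives the centre of each match in bases from the transcription start, the y axis the gene, colours the role and marker shapes the window; grey lines span 250 bases before to 50 bases after the start, and most matches lie before it.

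Library totals ran from 16065723 to 19173421 counts. In PANC-1, FOSL1 fell from 219, 217 and 242 CPM (read counts scaled to library size) in the scramble replicates to 178, 167 and 166 CPM in the knockdown replicates, a log2 fold change of -0.43 (SE 0.0617, adjusted p = 2.88e-06). In H1299, HDAC2 fell from 171, 178 and 187 CPM to 77.3, 68.5 and 78.4 CPM, a log2 fold change of -1.26 (SE 0.0654, adjusted p = 5.40e-15). The reduction of the targeted gene was thus smaller in PANC-1, and FOSL1 itself rose in the HDAC2 knockdown by 0.40 on the log2 scale (adjusted p = 4.41e-06). Scramble replicate 1 differed more from its group than the other scramble replicates did from each other in both lines. Without it, IRF1 was called higher in PANC-1 (log2 0.24, adjusted p = 0.0382), BST2 was called lower in H1299 (-1.39, 0.0202) and IRF7 lost its call in H1299. Mitochondrially encoded transcripts took 12.8% of counts ± 0.396 (SD, n = 3) in the FOSL1 knockdown and 7.16% ± 0.154 in its scramble, and 11.7% ± 0.659 and 12.5% ± 0.641 in the H1299 groups; the part of this in the results was not tested. Of 6 epithelial markers, 5 fell in the FOSL1 knockdown (log2 -0.88 for KRT7 to -0.43 for EPCAM) and KRT19 rose (0.22), while in H1299 KRT8, KRT18 and KRT7 fell (-0.76 to -0.62) and KRT19, EPCAM and CDH1 were near 0. Of the 2 fibroblast markers tested in PANC-1, COL1A1 fell in the FOSL1 knockdown (-1.69) and the other was called higher (0.37). The 8 leukocyte markers summed to 2.71 to 5.43 CPM in PANC-1 and 8.78 to 12.8 CPM in H1299, of which CD14 gave most in PANC-1 (2.09 to 3.65 CPM, lower in the FOSL1 knockdown by 0.62 on the log2 scale) and ITGAM most in H1299 (7.57 to 11.3 CPM, lower in the HDAC2 knockdown by 0.47). CD3E was at 0 in the FOSL1 knockdown and H1299 scramble libraries, LYZ in the FOSL1 knockdown, and PTPRC and NKG7 in the HDAC2 knockdown. No leukocyte marker was at 0 in the PANC-1 scramble libraries. The part of these markers in the results was not tested.

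The interferon-stimulated genes moved in both directions in PANC-1 after FOSL1 knockdown and almost uniformly downward in H1299 after HDAC2 knockdown. In PANC-1, 45 members passed the filter on low counts, of which 19 were higher (background, 23.8% of all genes tested) and 9 were lower (background 27.1%) at an adjusted p under 0.05 by edgeR's quasi-likelihood test. The higher members were 42.2% of those tested and the lower ones 20%, and the median log2 fold change was 0.19, against -0.02 over all genes. This median was 0.11 without scramble replicate 2, 0.12 without FOSL1 knockdown replicate 3 and 0.0641 with at least 10 counts required in every library. In H1299, 44 members were tested, of which 31 (70.5%) were lower (background 12.1%) and 1 (2.27%) was higher (background 10.3%). Their median log2 fold change was -0.45, against -0.005 over all genes. A negative value was seen for 43 of the 44, against 8367 of all 16465 genes tested. Of these 43, STAT2, PLSCR1, ZNFX1, PSMB9 and PSMB10 changed sign in fits that left out 1 library. OASL and SAMD9L in PANC-1 and OAS1 and OAS2 in H1299 had fewer than 10 counts in a library of their lower group and passed the filter through the other group. Without them 17 members were higher in PANC-1 and 29 lower in H1299. The members were chosen with earlier results of these data known, so their shares are not an independent test. Of interferon-stimulated genes outside the members, 13 of 30 tested were lower in H1299 and 0 higher, with a median of -0.26. In PANC-1, 6 of 33 of those outside genes were higher and 10 lower, with a median of -0.09. In bulk RNA, fewer expressing cells and less RNA per cell cannot be told apart.

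**Figure D2:**
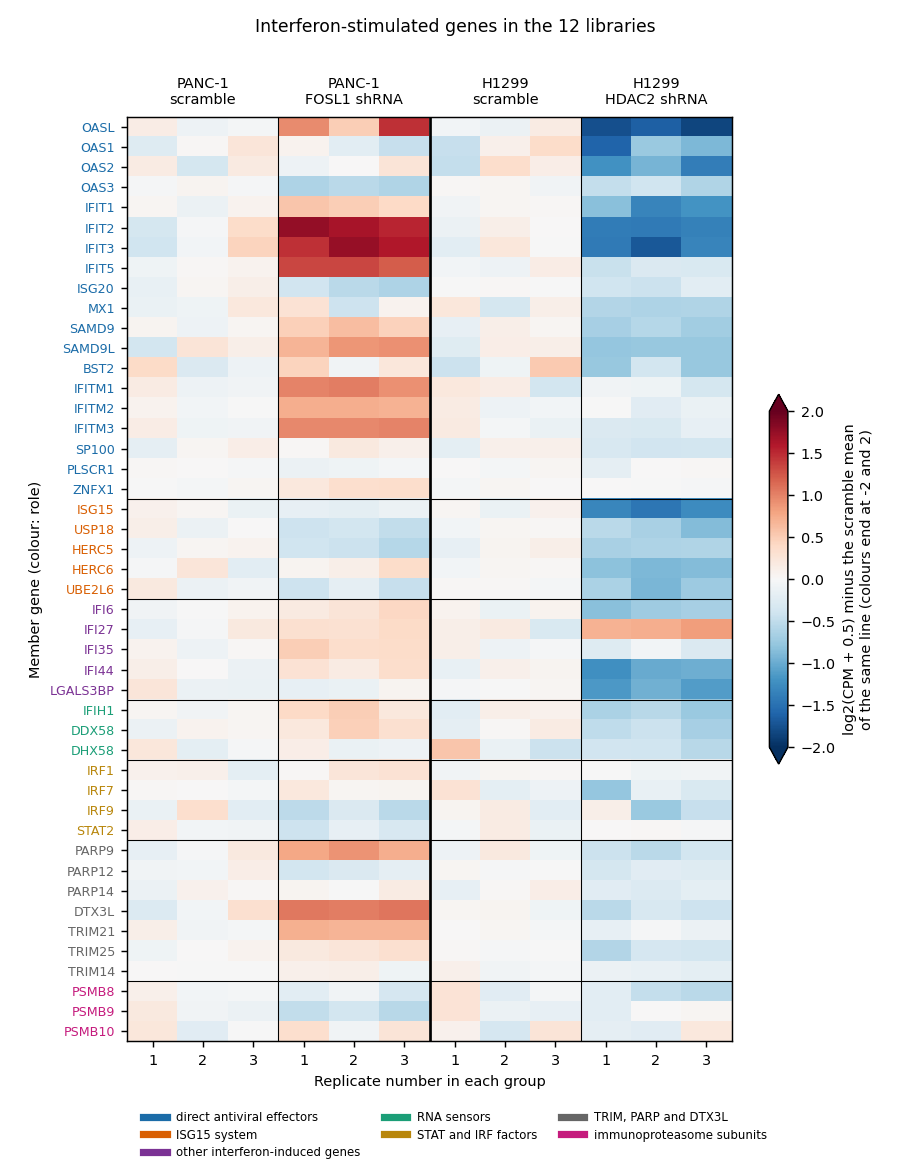
Levels of the 46 members tested in either line, in each of the 12 libraries. Columns are libraries and rows are members grouped by role; colour gives log2(CPM + 0.5) minus the scramble mean of the same line. The FOSL1 knockdown columns hold both red (higher) and blue (lower) rows, and the HDAC2 knockdown columns are mostly blue or near white, with IFI27 red in all 3.

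Of the direct antiviral effectors, 11 of 19 tested rose in PANC-1 and 2 fell (backgrounds 23.8% and 27.1%). The IFIT genes, whose products bind foreign RNA and block its translation, lie in 1 cluster on chromosome 10 in the order IFIT2 (chr10:89283694-89309271), IFIT3 (chr10:89327307-89377473), IFIT1 (chr10:89392546-89406487) and IFIT5 (chr10:89414568-89421605). IFIT3 stood at 0.86, 1.23 and 1.93 CPM in scramble replicates 1 to 3 and at 4.44, 5.46 and 4.91 CPM in the FOSL1 knockdown, a 3.61-fold rise (log2 1.85, SE 0.245, adjusted p = 9.42e-07). IFIT2 stood at 2.85, 3.68 and 5.01 CPM in the scramble and at 13.9, 12.8 and 11.7 CPM in the knockdown (log2 1.71, SE 0.164, adjusted p = 6.06e-09). For both genes every knockdown replicate lay above every scramble replicate, with scramble replicate 3 nearest. IFIT5 stood at 5.32, 5.76 and 6 CPM in the scramble and at 15.1, 15.1 and 13.9 CPM in the knockdown (log2 1.34, SE 0.128, adjusted p = 5.14e-09), with no overlap. IFIT1 rose less, by 0.48 on the log2 scale (SE 0.112, adjusted p = 0.00103), from 12.2, 11 and 12.5 CPM to 17.8, 17 and 15.8 CPM. All 4 IFIT genes of the cluster therefore rose, and because they are related in sequence, reads shared between them may have been lost or split.

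All 4 IFIT genes fell in H1299. IFIT3 stood at 23.2, 31.4 and 26.6 CPM in the H1299 scramble and at 9.79, 7.91 and 10.4 CPM in the HDAC2 knockdown (log2 -1.53, SE 0.117, adjusted p = 2.31e-11). IFIT2 stood at 35.1, 41.6 and 38.3 CPM in the scramble and at 14.2, 14.1 and 14.7 CPM in the knockdown (log2 -1.42, SE 0.0909, adjusted p = 4.27e-13). The knockdown replicates lay far below the scramble ones in both cases. IFIT1 fell by 1.14 on the log2 scale (SE 0.108, adjusted p = 1.92e-09) and IFIT5 by 0.37 (SE 0.117, adjusted p = 0.0206). The IFIT5 call was lost without HDAC2 knockdown replicate 1 (adjusted p = 0.102), without HDAC2 knockdown replicate 3 (0.0519) or without scramble replicate 3 (0.127). The scramble levels of IFIT2 in the lines differed by 3.32 on the log2 scale, while its knockdown levels were 11.7 to 13.9 CPM in PANC-1 and 14.1 to 14.7 CPM in H1299.

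The OAS family, which makes 2′-5′ oligoadenylates that switch on RNase L (OASL itself lacks that activity and acts with RIG-I), did not move as 1 group in PANC-1. OASL (chr12:121017763-121039246) stood at 0.537, 0.373 and 0.417 CPM in the PANC-1 scramble and at 1.32, 0.823 and 2.09 CPM in the FOSL1 knockdown (log2 1.64, SE 0.415, adjusted p = 0.00195). The groups did not overlap, but the scramble libraries held 10, 7 and 8 counts, OASL passed the filter through the knockdown libraries, and the knockdown replicates were spread. OAS3 (chr12:112938051-112976460) moved the other way, from 49.6, 52.1 and 49.3 CPM to 32.7, 34.4 and 33.0 CPM, the largest fall among the members called in PANC-1 (log2 -0.62, SE 0.0786, adjusted p = 5.34e-07). Its neighbours OAS1 (chr12:112905856-112933219) and OAS2 (chr12:112978395-113011723) had log2 fold changes of -0.30 and 0.05 and were not called.

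In H1299 all 4 OAS genes fell. OASL stood at 15.5, 14.8 and 18.1 CPM in the scramble and at 4.42, 4.86 and 4.15 CPM in the HDAC2 knockdown (log2 -1.85, SE 0.131, adjusted p = 4.53e-12). OAS1 stood at 0.601, 1.13 and 1.47 CPM in the scramble and at 0, 0.410 and 0.316 CPM in the knockdown (log2 -2.10, SE 0.539, adjusted p = 0.00466). OAS2 stood at 0.820, 1.86 and 1.52 CPM in the scramble and at 0.299, 0.469 and 0.210 CPM in the knockdown (log2 -2.10, SE 0.444, adjusted p = 7.43e-04). The groups did not overlap for any of these 3 genes, although OAS1 and OAS2 rest on few counts and passed the filter through the scramble libraries; without scramble replicate 3 the OAS1 call was lost (adjusted p = 0.0527). OAS3 fell by 0.50 on the log2 scale (SE 0.0751, adjusted p = 9.29e-06), from 54.9, 55.8 and 51.8 CPM to 38.6, 41.2 and 35.6 CPM.

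SAMD9L (chr7:93130056-93148385), which restrains poxviruses and translation, stood at 0.376, 0.853 and 0.731 CPM in the PANC-1 scramble and at 1.32, 1.59 and 1.64 CPM in the FOSL1 knockdown (log2 1.18, SE 0.358, adjusted p = 0.00788), and fell in H1299 by 0.92 (adjusted p = 0.00221). Its scramble libraries in PANC-1 held 7, 16 and 14 counts, and it passed the filter there through the knockdown libraries. Its neighbour SAMD9 rose by 0.53 in PANC-1 and fell by 0.68 in H1299. The IFITM proteins, which sit in membranes and hinder viral fusion, were the most abundant members per kilobase of exon in the FOSL1 knockdown, at 96.1 CPM per kb for IFITM3, 89.0 for IFITM2 and 64.6 for IFITM1. IFITM1 rose from 61.2, 50.8 and 51.7 CPM to 108, 111 and 103 CPM, IFITM3 from 154, 132 and 133 CPM to 271, 272 and 278 CPM, and IFITM2 from 90.5, 83.1 and 86.4 CPM to 144, 144 and 141 CPM. These 3 neighbours on chromosome 11 rose by 0.96, 0.95 and 0.70 on the log2 scale (adjusted p = 1.85e-10, 1.44e-11 and 2.36e-09), and their near-identical sequences may share reads. In H1299, IFITM3 fell by 0.26 (adjusted p = 0.00891), a call lost without HDAC2 knockdown replicate 1 (0.0593) or 2 (0.0653), IFITM2 had a value of -0.13 that was not called, and IFITM1 was too low to test.

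ISG20 (an exonuclease acting on single-stranded RNA) was the other effector that fell in PANC-1, from 13.2, 15 and 16 CPM to 11.1, 9.99 and 9.37 CPM (log2 -0.56, SE 0.122, adjusted p = 4.50e-04). It also fell in H1299, by 0.36 (adjusted p = 0.0335), a call that was lost without HDAC2 knockdown replicate 1 or 2 or scramble replicate 2 or 3 (adjusted p = 0.0683 to 0.136) and under DESeq2 (0.0725). ZNFX1 rose by 0.28 in PANC-1 and had a value of -0.02 in H1299. MX1, a GTPase that traps viral nucleocapsids, was at 3.38, 3.52 and 4.44 CPM in the PANC-1 scramble and was not called in the knockdown (log2 -0.03). In H1299 it fell by 0.86 (adjusted p = 0.0413), a call lost when any HDAC2 knockdown replicate or scramble replicate 1 or 3 was left out (adjusted p = 0.1 to 0.141) and under DESeq2 (0.089). SP100, a nuclear body protein, fell by 0.38 in H1299 (lost without scramble replicate 3, adjusted p = 0.0581) and was not called in PANC-1. BST2 and PLSCR1 were called in neither line with all libraries.

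ISG15 is a ubiquitin-like protein, UBE2L6 the enzyme that carries it, HERC5 its main ligase and USP18 the protease that removes it and also restrains the receptor. In PANC-1, 3 of 5 were lower (background 27.1%) and none was higher. HERC5 (chr4:88457119-88506163) went from 6.66, 7.41 and 7.57 CPM to 5.34, 5.23 and 4.69 CPM (log2 -0.53, SE 0.15, adjusted p = 0.00506), USP18 from 8.01, 6.77 and 7.41 CPM to 5.40, 5.58 and 5.08 CPM (log2 -0.49, SE 0.148, adjusted p = 0.00798), and UBE2L6 fell by 0.38 (adjusted p = 0.00364). ISG15 itself (log2 -0.18, adjusted p = 0.0909, or -0.23 and 0.0464 without scramble replicate 3) and HERC6 (0.29) were not called.

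In H1299 all 5 genes of the ISG15 system were lower (background 12.1%). ISG15 stood at 41.4, 36.6 and 42.7 CPM in the scramble and at 15.9, 14.5 and 16.5 CPM in the HDAC2 knockdown (log2 -1.37, SE 0.0891, adjusted p = 5.75e-13), with no overlap. HERC6 fell by 0.89, UBE2L6 by 0.77, USP18 by 0.73 and HERC5 by 0.64 on the log2 scale (adjusted p = 7.09e-08, 4.49e-07, 2.58e-04 and 6.72e-07). HERC5 in H1299 went from 41.2, 48.1 and 50.1 CPM to 29.4, 30 and 30.4 CPM, so both groups lay well above its PANC-1 levels.

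**Figure D3:**
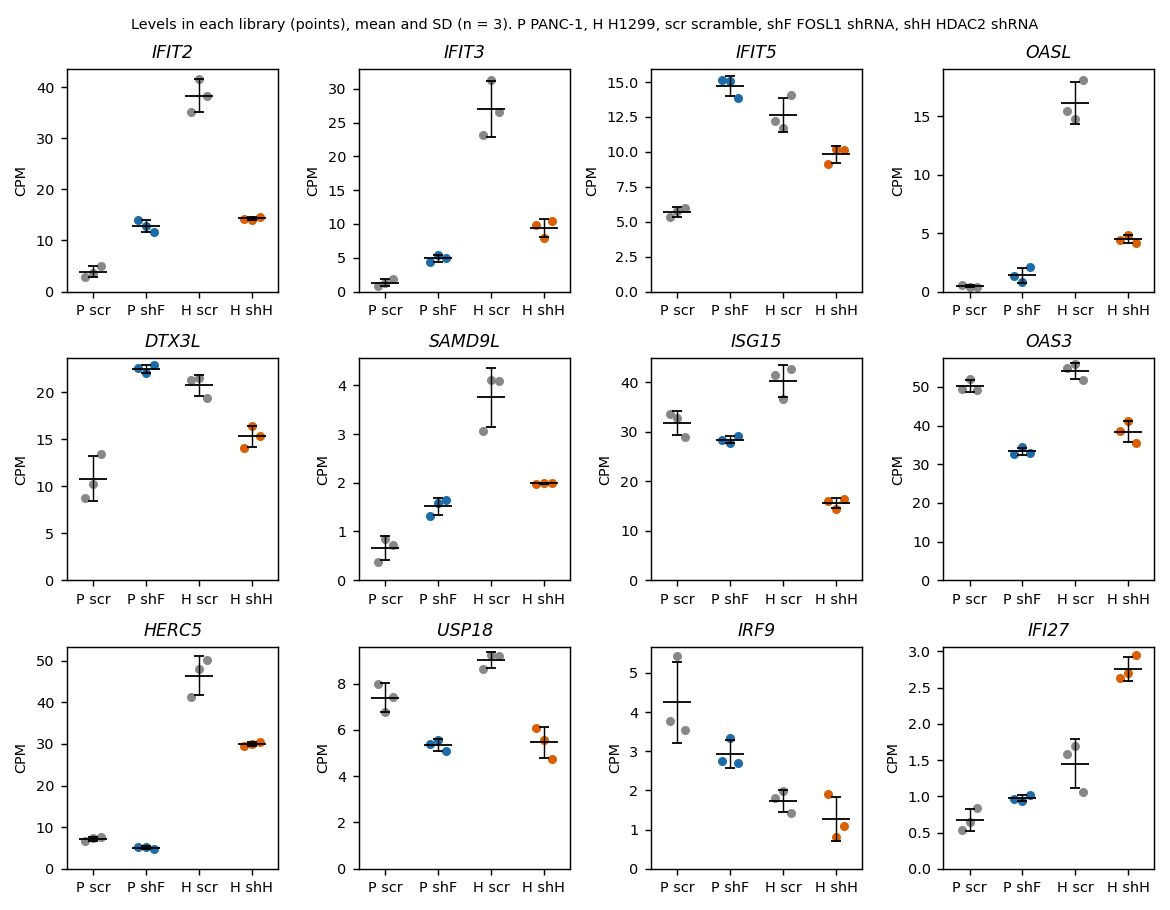
CPM of 12 members in each library (points), with the mean and SD of 3 replicates (bars), for the scramble and knockdown groups of PANC-1 (P) and H1299 (H). IFIT2, IFIT3, IFIT5, OASL, DTX3L and SAMD9L were higher in the FOSL1 knockdown and lower in the HDAC2 knockdown, while OAS3, HERC5 and USP18 were lower in both.

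Among the RNA sensors, DDX58 (RIG-I) stood at 27.1, 30.9 and 30.2 CPM in the PANC-1 scramble and at 34.0, 40.9 and 36.8 CPM in the FOSL1 knockdown (log2 0.32, SE 0.0916, adjusted p = 0.00562). IFIH1 (MDA5) stood at 7.47, 6.88 and 7.46 CPM and at 9.72, 10.4 and 8.53 CPM (log2 0.37, SE 0.135, adjusted p = 0.0254). The groups did not overlap for either gene, but the DDX58 call was lost without FOSL1 knockdown replicate 2 (adjusted p = 0.0581), and the IFIH1 call without FOSL1 knockdown replicate 1 (0.0634), FOSL1 knockdown replicate 2 (0.107) or scramble replicate 2 (0.0735). In H1299, IFIH1 went from 33.3, 41.7 and 41.1 CPM to 24.6, 25.9 and 22.9 CPM (log2 -0.67, SE 0.0904, adjusted p = 1.73e-06) and DDX58 from 22.6, 26.2 and 29.0 CPM to 18.1, 19 and 16.1 CPM (log2 -0.55, SE 0.0995, adjusted p = 1.08e-04). DHX58 (LGP2), the regulatory member of the family, stood at 6.77, 4.96 and 5.64 CPM in the PANC-1 scramble and at 6.36, 5.17 and 5.31 CPM in the knockdown (log2 -0.07, not called), and was too low to test in H1299. Of the exon bases of DDX58, 43.2% overlap another annotated gene, as do 39.4% in PSMB10, 31.6% in IFITM1, 27.2% in IRF9, 23.1% in IFI6 and 22.9% in IRF1.

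The transcription factors that drive these genes had 2 falls and no rise among 4 tested in PANC-1 (backgrounds 27.1% and 23.8%). IRF9 stood at 3.76, 5.44 and 3.55 CPM in the PANC-1 scramble and at 2.76, 3.35 and 2.71 CPM in the FOSL1 knockdown (log2 -0.55, SE 0.209, adjusted p = 0.0299), a call lost without FOSL1 knockdown replicate 1 (0.0875), FOSL1 knockdown replicate 3 (0.0948) or scramble replicate 2 (0.276) and under DESeq2 (0.0696). STAT2 went from 50.5, 44.5 and 43.8 CPM to 34.5, 41.3 and 36.8 CPM (log2 -0.32, SE 0.0869, adjusted p = 0.00316). IRF9 and STAT2 were therefore lower in the knockdown in which the IFIT genes were higher. IRF1 stood at 23.2, 23.4 and 18.9 CPM in the PANC-1 scramble and at 22.1, 25.7 and 26.7 CPM in the knockdown (log2 0.16, adjusted p = 0.204). IRF7 stood at 34.9, 34.6 and 33.6 CPM and at 40, 35.5 and 35.6 CPM (0.08, adjusted p = 0.427), and neither was called.

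In H1299, IRF7, which amplifies interferon production, went from 16.6, 11.7 and 12.4 CPM to 7.64, 12.1 and 10.7 CPM (log2 -0.42, SE 0.138, adjusted p = 0.0281). The groups overlapped, and the IRF7 call was lost without HDAC2 knockdown replicate 1 (0.234), HDAC2 knockdown replicate 3 (0.0537) or scramble replicate 1 (0.209) and under DESeq2 (0.0617). STAT2, IRF9 and IRF1 were not called in H1299. STAT2 stood at 48.3, 55.6 and 45 CPM in the scramble and at 49.5, 50.2 and 48.5 CPM in the knockdown (log2 -0.01). IRF9 stood at 1.8, 1.97 and 1.42 CPM and at 1.91, 0.82 and 1.1 CPM (-0.44, adjusted p = 0.339), and IRF1 at 10.9, 11.8 and 11.7 CPM and at 11.4, 10.8 and 10.9 CPM (-0.06). The groups overlapped for all 3 genes.

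The TRIM, PARP and DTX3L genes, which regulate ubiquitination and ADP-ribosylation in antiviral signalling, had 4 rises and 1 fall among 7 tested in PANC-1 (backgrounds 23.8% and 27.1%) and 5 falls among 7 in H1299 (background 12.1%). DTX3L (chr3:122564338-122575203) stood at 8.70, 10.2 and 13.5 CPM in the PANC-1 scramble and at 22.6, 22.0 and 22.9 CPM in the FOSL1 knockdown (log2 1.03, SE 0.126, adjusted p = 2.92e-07). Its partner PARP9 (chr3:122527924-122564577), whose promoter window on the opposite strand holds the same ISRE match, went from 10.3, 11.4 and 13.4 CPM to 20.3, 22.2 and 19.6 CPM (log2 0.80, SE 0.115, adjusted p = 3.44e-06). In H1299 this divergent pair fell by nearly equal amounts, 0.44 for DTX3L and 0.46 for PARP9 (adjusted p = 0.00122 and 0.00145). TRIM21, an antibody receptor in the cytosol, rose by 0.68 in PANC-1 (adjusted p = 4.26e-06) and had a value of -0.11 in H1299. TRIM25, a ligase that activates RIG-I, rose by 0.23 in PANC-1 and fell by 0.42 in H1299. PARP12 fell by 0.30 in PANC-1 (lost without FOSL1 knockdown replicate 1, adjusted p = 0.055) and by 0.28 in H1299 (lost without HDAC2 knockdown replicate 1, 0.0669). PARP14 fell by 0.25 in H1299, a call lost when any HDAC2 knockdown replicate or scramble replicate 2 or 3 was left out (adjusted p = 0.0701 to 0.205) and under DESeq2 (0.056), and had 0.05 in PANC-1, and TRIM14 was called in neither line.

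The immunoproteasome subunits replace the standard catalytic subunits and change the peptides made for antigen presentation. PSMB9 stood at 26.1, 21.7 and 20.9 CPM in the PANC-1 scramble and at 16, 17.4 and 15.4 CPM in the FOSL1 knockdown (log2 -0.52, SE 0.109, adjusted p = 3.50e-04). In H1299 it stood at 27.6, 20.9 and 20.1 CPM and at 19.6, 22.8 and 23.2 CPM (log2 -0.06), so the groups overlapped. Its neighbour PSMB8 was the subunit called in H1299, from 24.5, 17.3 and 19.6 CPM to 17.4, 14.3 and 13.8 CPM (log2 -0.44, SE 0.113, adjusted p = 0.00496, lost without HDAC2 knockdown replicate 3 at 0.0527), and the groups overlapped at 1 replicate. In PANC-1 it stood at 19.2, 17.2 and 17.5 CPM and at 15.5, 17.2 and 14.2 CPM (-0.23, adjusted p = 0.0848). PSMB10 was called in neither line, at 1.6 to 2.58 CPM in PANC-1 (log2 0.19) and 2.76 to 4.45 CPM in H1299 (-0.08). Of the 6 standard subunits and activator genes compared, PSMB5 (0.17) rose and PSME1 (-0.19) fell in PANC-1, and PSMB6 (0.29) rose in H1299.

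Of the remaining interferon-induced genes, IFI27, a mitochondrial and nuclear protein, was the single member higher in H1299. It stood at 1.58, 1.69 and 1.06 CPM in the scramble and at 2.63, 2.69 and 2.94 CPM in the HDAC2 knockdown (log2 0.93, SE 0.258, adjusted p = 0.00837). The groups did not overlap, and without scramble replicate 3 the call was lost (log2 0.75, adjusted p = 0.0512). In PANC-1 its value was 0.51 and not called. IFI6 rose by 0.27 in PANC-1 (adjusted p = 0.0390) and fell by 0.75 in H1299 (adjusted p = 1.41e-08). The PANC-1 call of IFI6 was lost without FOSL1 knockdown replicate 2 (0.0651), FOSL1 knockdown replicate 3 (0.199) or scramble replicate 2 (0.0666), with upper quartile scaling (0.056) and with at least 10 counts in every library (0.0566). IFI35 rose by 0.39 in PANC-1 and had -0.21 in H1299, LGALS3BP, a secreted glycoprotein, fell by 1.1 in H1299 and had -0.11 in PANC-1, and IFI44 fell by 1.20 in H1299.

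Members with too few counts were not tested. IFI44L, RSAD2 (viperin), TRIM22, XAF1, CMPK2 and EPSTI1 were excluded in both lines, with 15 to 62 counts in all 12 libraries together. IFI44 was excluded in PANC-1, with 15 counts in the knockdown and 9 in the scramble libraries, and IFITM1 and DHX58 in H1299. Of the excluded members, XAF1 had 28 counts in the FOSL1 knockdown libraries and 5 in the PANC-1 scramble libraries.

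The difference between the effects of both knockdowns was fitted over all 12 libraries as the HDAC2 effect in H1299 minus the FOSL1 effect in PANC-1. Of 46 members tested, 29 had a lower value (background 18.3%) and 1, PSMB9, a higher one (0.43; background 15.5%). Since the target and the line both change between the knockdowns, their parts in this difference cannot be told apart. Of 43 members tested in both lines, 14 were higher in PANC-1 and lower in H1299, compared with 3.14% of the 14585 genes tested in both. All 14 passed the test of the difference, which opposite calls in the same libraries make likely, so this adds no separate support. Without OASL and SAMD9L, which were low in the PANC-1 scramble, 12 remain. Of these 12, IFI6, IFIH1 and DDX58 lost the PANC-1 call in fits that left out 1 library. In such fits IFIT5 and IFITM3 lost the H1299 call. The 14 were OASL, IFIT1, IFIT2, IFIT3, IFIT5, IFI6, IFIH1, DDX58, SAMD9, SAMD9L, PARP9, DTX3L, TRIM25 and IFITM3. A further 6, OAS3, ISG20, USP18, HERC5, PARP12 and UBE2L6, were lower in both, compared with 4.48% of all genes, and of these UBE2L6 passed the test of the difference. None of the 43 was higher in both, compared with 3.05% of all genes.

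**Figure D4:**
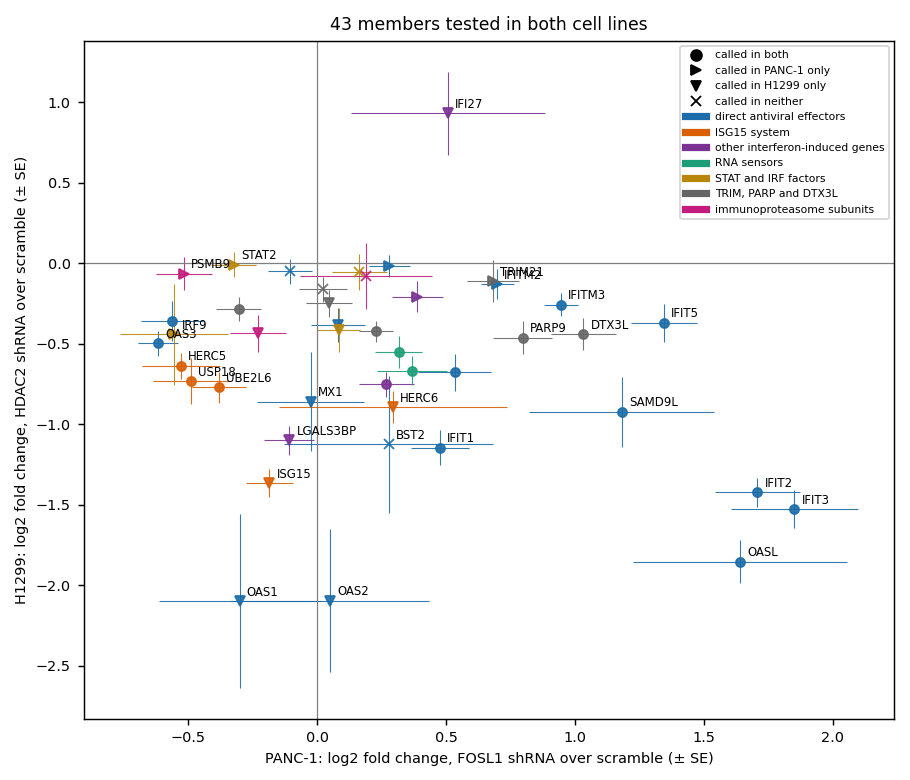
Log2 fold changes of the 43 members tested in both lines, FOSL1 shRNA over scramble in PANC-1 (x axis) against HDAC2 shRNA over scramble in H1299 (y axis), with SE bars. Colours give roles and marker shapes the calls; the 14 members called in opposite directions lie at the lower right and the 6 called lower in both at the lower left.

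Levels were also compared between the scramble libraries of the lines. Of 46 members tested, 21 were higher in H1299 (background 39.5%) and 12 were higher in PANC-1 (lower in H1299, background 37.4%). Since 76.9% of all genes tested were called between the lines, these counts show nothing particular to the members. HERC6, IFI44, OASL and IFIT3 were higher in H1299 by 5.30, 5.25, 5.18 and 4.33 on the log2 scale. HERC6, for example, stood at 0.484, 0.693 and 0.365 CPM in the PANC-1 scramble and at 19.5, 20.8 and 20.6 CPM in the H1299 scramble. On the other side IFITM1 was lower in H1299 by 7.01 on the log2 scale (61.2, 50.8 and 51.7 CPM against 0.547, 0.508 and 0.202 CPM), DHX58 by 2.67, IFITM2 by 1.82, IRF7 by 1.33 and IRF9 by 1.29. OAS3, USP18, STAT2, PARP12, PARP14 and PSMB9 were among the 13 members not called, with log2 differences between 0.01 and 0.30. The IFIT genes and OASL, which moved in opposite directions in the knockdowns, were each higher in the H1299 scramble.

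**Figure D5:**
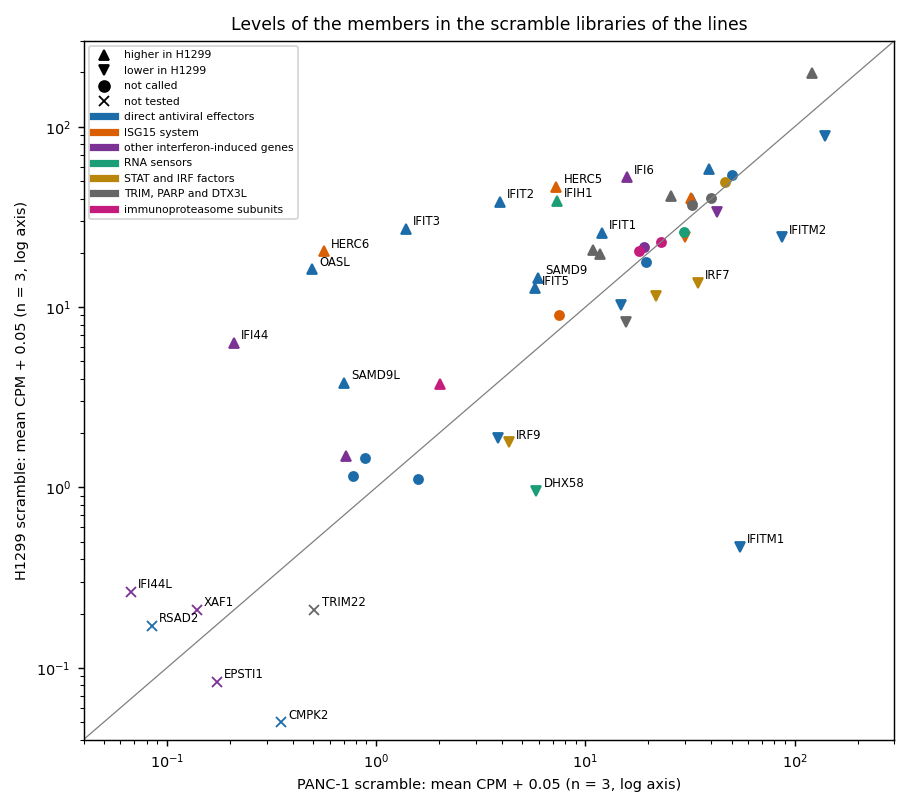
Mean CPM of all 52 members in the scramble libraries of PANC-1 (x axis) and H1299 (y axis), both on log axes after adding 0.05, with n = 3 per line. Triangles mark members called higher or lower in H1299 and crosses those not tested; HERC6, OASL, IFI44 and IFIT3 lie far above the diagonal and IFITM1 far below it.

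Upstream genes were read from lists of the pathway. Interferon transcripts were at or near the limit of detection. Of 11 ligand genes, 7 had fewer than 3 counts in all 12 libraries together and 4 of these, IFNB1 among them, had 0. IFNE, the most counted, had 112 counts in all and was the one ligand tested, in H1299, where it was not called. In PANC-1 it was not tested and had 29 counts in the FOSL1 knockdown and 7 in the scramble libraries. Of 11 receptor and JAK-STAT genes tested in PANC-1, 3 rose and 5 fell (backgrounds 23.8% and 27.1%). The rises were IFNGR1 (1.04), STAT3 (0.37) and IFNAR1 (0.32). The falls included IFNLR1 (-1.55), JAK2 (-0.58), IFNGR2 (-0.52) and JAK1 (-0.48). In H1299, 1 of 10 tested rose, IFNGR1 (0.49), and 1 fell (backgrounds 10.3% and 12.1%). IFNGR1, a chain of the interferon gamma receptor, stood at 16.2, 21.5 and 22.3 CPM in the PANC-1 scramble and at 42.3, 39.8 and 43.2 CPM in the FOSL1 knockdown.

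Among nucleic acid sensing genes, TMEM173 (STING), the adaptor for cytosolic DNA, moved in opposite directions, from 5.75, 6.77 and 6.05 CPM to 9.66, 11.2 and 9.65 CPM in PANC-1 (log2 0.69, adjusted p = 1.95e-04) and from 20.4, 21.8 and 22.7 CPM to 11.3, 12.8 and 14.1 CPM in H1299 (log2 -0.77, adjusted p = 1.33e-06). IKBKE, a kinase that activates IRF3, fell in both, by 0.77 and 0.85. The list as a whole had 3 rises and 4 falls of 11 tested in PANC-1 (backgrounds 23.8% and 27.1%) and 0 rises and 2 falls of 12 in H1299 (backgrounds 10.3% and 12.1%), shares near the background. Of 14 genes that restrain interferon signalling, 4 rose and 6 fell in PANC-1, where 50.9% of all genes tested were called in either direction, led by IRF2BP1 (1.03), SOCS1 (-1.35) and SOCS3 (-1.17). SOCS3, a JAK inhibitor, went from 95.6, 92.9 and 81.0 CPM to 42.5, 38.3 and 40.6 CPM. In H1299, 1 of 13 rose (background 10.3%), PIAS4 (0.28), and SOCS1 (-0.12) and SOCS3 (0.06) were not called.

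Interferon-stimulated genes outside the 52 members were counted in the same way. In PANC-1, 6 of 33 tested rose and 10 fell, among them CCL5 (0.96), TRIM38 (0.94), LAP3 (-1.38) and LAMP3 (-1.22), and the median was -0.09. In H1299, none of 30 rose and 13 fell, led by the chemokine CCL5 (-1.90), the DNA sensor IFI16 (-1.22) and DDX60 (-0.94), with a median of -0.26. CCL5 stood at 6.77, 6.88 and 6.79 CPM in the PANC-1 scramble and at 13.4, 14.5 and 12.4 CPM in the FOSL1 knockdown, and at 2.02, 1.30 and 1.82 CPM in the H1299 scramble and 0.657, 0.234 and 0.473 CPM in the HDAC2 knockdown. IFI16 was too low to test in PANC-1. The PANC-1 counts lie near the backgrounds of 23.8% and 27.1% of all genes, and the background of falls in H1299 was 12.1%.

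The members with an ISRE match in a promoter window moved both ways. In PANC-1, 11 of 25 tested members with a match rose and 4 fell (median log2 fold change 0.27), against 4 and 4 of 12 without one (median 0.12), where the backgrounds were 23.8% and 27.1%. In H1299, 19 of 25 with a match and 7 of 12 without one fell, with medians of -0.46 and -0.43 (background 12.1%). The 9 members that had no window are in neither group: OASL, OAS2, IFIT2, DHX58, IRF7, USP18, TRIM22, IFITM2 and ZNFX1. Of these, OASL, IFIT2, IFITM2 and ZNFX1 rose and USP18 fell in PANC-1. Of the stretches printed above, those of IFIT1, IFIT3, IFITM3 and PARP9 belong to members that rose in PANC-1, those of HERC5 and ISG20 to members that fell there, and that of IFI27 to the member that rose in H1299. The AP-1 motif was found in the windows of IFIT5, ISG20, MX1, SAMD9L and SP100. Of these 5, IFIT5 and SAMD9L rose and ISG20 fell in the FOSL1 knockdown. Of 32 tested members without the motif, 13 rose and 7 fell there. SAMD9L passed the PANC-1 filter through the knockdown libraries. In the HDAC2 knockdown all 5 fell, against 21 of 32 without the motif. The H1299 calls of IFIT5, ISG20, MX1 and SP100 were lost in fits that left out 1 library. The part of the motif in these changes was not tested.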

How the data were processed

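Total RNA from PANC-1 and H1299 cells was made into libraries with an NEBNext Ultra kit. Per the labels and the study's methods, the authors trimmed reads with cutadapt, checked them with FastQC, aligned them to GRCh38 with STAR 2.7.2b and assigned them to genes with featureCounts 2.0.1; the deposited values are raw counts per gene, with no normalization. The strand setting and annotation release are not given in the sources used here, so reads of overlapping or antisense genes could not be told apart. Gene positions came from GENCODE release 44, which matched all 52 members; promoter windows came from RefSeq.

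The members and lists were chosen with earlier results of these data known. Groups were taken from sample titles. Tests used edgeR 4.0.16 under R 4.3.3 on 3 knockdown and 3 scramble libraries per line: filterByExpr, TMM scaling, a quasi-likelihood test and Benjamini-Hochberg adjustment over all genes tested (16345 in PANC-1, 16465 in H1299), called at 0.05. The difference of effects and the scramble lines were fitted likewise. CPM values use TMM scaling over all 12 libraries. Members named in full were, per knockdown, up to 6 called rises and 6 called falls of largest size with a mean of at least 1 CPM in a group, plus the regulators, sensors and immunoproteasome subunits; IFIT1, the IFITM genes, PARP9, HERC6, MX1, IFI6 and IFI44 were added after their values were seen, as were the few pathway genes given per library. Some items of the pathway and marker lists are not reported here. Of each pathway list, up to 3 called genes per direction were named by size, and others were added after their values were seen. Alternatives were DESeq2 1.42.0, limma-voom 3.58.1, other scalings and filters, a replicate block and leaving out each library. The fitting was tested on counts simulated from its own model. Such counts cannot show how it handles replicates that deviate or are not independent. Library totals of 16065723 to 19173421 limit genes under about 1 CPM.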

Additional observations from a re-analysis of the deposited data

Results flagged for a closer look

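Of 46 members tested, 30 had effects that differed between the knockdowns by the test of the difference itself. The difference is the HDAC2 effect in H1299 minus the FOSL1 effect in PANC-1 (edgeR quasi-likelihood test over all genes, log2 scale). In this test 33.8% of all genes tested were called, 18.3% lower and 15.5% higher. Target and line cannot be told apart in any of the 30 members. Among the antiviral effectors the difference was -3.52 for OASL, -3.40 for IFIT3, -3.15 for IFIT2, -2.17 for OAS2, -2.12 for SAMD9L, -1.82 for OAS1, -1.73 for IFIT5 and -1.64 for IFIT1. It was smaller for IFITM1 (-1.42), SAMD9 (-1.23), IFITM3 (-1.22), IFITM2 (-0.85), SP100 (-0.48) and ZNFX1 (-0.32). OASL, HERC6, SAMD9L, IFITM1, OAS1, OAS2 and IFI44 rest on few counts in at least 1 line; OASL, with the largest difference, had 25 counts in the 3 PANC-1 scramble libraries together.

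In the ISG15 system the difference was -1.21 for HERC6, -1.20 for ISG15 and -0.41 for UBE2L6. For the RNA sensors it was -1.06 for IFIH1 and -0.89 for DDX58, and for the transcription factor IRF7 it was -0.52. Among the TRIM, PARP and DTX3L genes it was -1.49 for DTX3L, -1.28 for PARP9, -0.81 for TRIM21, -0.67 for TRIM25 and -0.31 for PARP14. Among the other interferon-induced genes it was -2.04 for IFI44, -1.04 for IFI6, -1.01 for LGALS3BP and -0.62 for IFI35. PSMB9 differed in the opposite direction, by 0.43.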

How the results depend on the processing

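When 1 library was left out at a time, the members called ranged from 16 to 20 higher and 7 to 10 lower in PANC-1, from 0 to 1 higher and 24 to 30 lower in H1299, from 25 to 30 for the difference of effects and from 32 to 35 between the scramble lines. The median log2 fold change ranged from 0.11 to 0.23 in PANC-1 and from -0.55 to -0.45 in H1299. Calls of 23 of 28 members in PANC-1 and 21 of 32 in H1299 were kept in every such fit; those lost were DDX58, IFI6, IFIH1, IRF9 and PARP12 in PANC-1 and IFI27, IFIT5, IFITM3, IRF7, ISG20, MX1, OAS1, PARP12, PARP14, PSMB8 and SP100 in H1299. Requiring an absolute log2 fold change over 0.5 as well left 12 higher and 5 lower in PANC-1 and 19 lower in H1299. With at least 10 counts in every library the PANC-1 median was 0.0641, over fewer members tested, and with no filter the H1299 median was -0.52, over more. DESeq2 gave 19 higher and 8 lower in PANC-1 and 25 lower in H1299, where ISG20, MX1, IRF7 and PARP14 lost their calls and OAS1 and OAS2 had no adjusted p. Leaving out called members with under 10 counts in a library of their lower group, a choice made after the data were seen, gave 17 higher and 9 lower in PANC-1 and 1 higher and 29 lower in H1299. Replicate numbers did not pair the libraries (correlations of same-numbered deviations from -0.059 to 0.044); with a replicate block the counts were 19 higher and 9 lower in PANC-1, 1 higher and 30 lower in H1299 (MX1 lost its call, adjusted p = 0.0563), 31 for the difference and 36 between the scramble lines.

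Direction changed under an alternative only for members that were not called. Leaving out 1 library at a time, the log2 fold change in PANC-1 ranged from -0.1699 to 0.2103 for OAS2, from -0.1963 to 0.1714 for MX1, from -0.1576 to 0.0865 for DHX58, from -0.0011 to 0.1068 for PARP14, from -0.0116 to 0.0932 for TRIM14 (-7e-04 with upper quartile scaling) and from -0.1762 to 0.0532 for LGALS3BP. In H1299 it ranged from -0.0733 to 0.0869 for STAT2, from -0.0837 to 0.016 for PLSCR1, from -0.0357 to 0.0071 for ZNFX1, from -0.148 to 0.0913 for PSMB9 and from -0.2556 to 0.0823 for PSMB10. Library depth limits the members under about 1 CPM.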
